A study of Mus musculus with 6 samples.

Results

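The genes described here are 10 formins, Daam2 and its relatives Daam1, Diaph1, Diaph2, Diaph3, Fmnl2, Fmnl3, Fhod1, Fmn2 and Inf2, taken by gene name from a count table of 54532 genes. The family was chosen by the Daam2 difference between RBPMS and control in these same libraries, so the levels and differences of the 10 genes are a description and carry no p-value. Cultured mouse endothelial cells were taken for RNA sequencing 72 h after lentivirus carrying RBPMS (3 libraries) or an empty vector (control, 3 libraries), so both groups received lentivirus. RBPMS carries an RNA recognition motif and regulates splicing, and the series places it in heart failure during aging. The vessel bed, the strain, the promoter of the vector and whether the endothelial cells are a line or a primary culture are not stated in these sources. No label ties the replicates to separate cultures, so a p-value here speaks for the variation among the 6 libraries alone, which may be technical.

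Formins build unbranched actin filaments. Their FH2 domain nucleates a filament and stays on its growing end, while the neighbouring FH1 domain feeds it actin bound to profilin. Many formins are held inactive by binding to themselves until an activator opens them. The DAAM proteins are known as partners of Dishevelled, which links Wnt and Frizzled signals to planar cell polarity. In endothelial cells formins act in stress fibres, filopodia, cell junctions and cell division.

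Libraries held 15779567 to 23076124 counts, with 19799 to 21087 genes detected. Rbpms, the mouse gene of the delivered factor, had 131, 147 and 133 CPM (counts scaled to library size by TMM) in RBPMS replicates 1 to 3. In control replicates 1 to 3 it had 57.0, 56.8 and 55.1 CPM. These counts cannot tell transcripts of the vector from those of the cells' own gene. Control replicate 3 stood apart: the correlation of log2 CPM across genes, which are not replicates, was 0.954 to 0.960 for pairs with this library and 0.991 to 0.995 for pairs without it. For the formins chosen above, each difference is therefore given from all 6 libraries and from the 5 that remain without it. Differences of other genes are mostly given from the 5. The 10 endothelial marker genes were all detected, with a summed level of 17450 to 18390 CPM in RBPMS libraries and 15740 to 20310 CPM in controls. Over all 6 libraries edgeR called 0 of 13898 genes (0%, with 1050 at an unadjusted p under 0.05), DESeq2 56 and limma-voom 0. Without control replicate 3 edgeR called 1022 of 14123 genes (7.24%). Of the 10 endothelial markers 2 rose and 2 fell in that fit. Among the falling was Vwf, the most abundant of them (log2 fold change -0.45 ± 0.053).

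Daam2 was 4.06-fold higher in the RBPMS libraries than in control replicates 1 and 2. Daam2 (ENSMUSG00000040260, dishevelled associated activator of morphogenesis 2, chromosome 17, 49456022 to 49564343, minus strand, GRCm38) had 518, 578 and 438 counts in RBPMS replicates 1 to 3 and 84, 117 and 67 counts in control replicates 1 to 3. These are 25.3, 26.8 and 24.0 CPM with RBPMS and 5.27, 7.21 and 2.95 CPM in controls. The groups did not overlap, and the gap between them was wider than the spread within either. Against the mean of all 3 controls the fold of the means was 4.93. The fitted log2 fold change was 2.02 ± 0.12 (SE) from 5 libraries and 2.32 ± 0.30 from all 6, ranks 15 and 3 among all tested genes. In bulk RNA, more cells with the transcript and more transcript per cell cannot be told apart.

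The annotation of Daam2 limits what these counts say about its mRNA. GENCODE M21 lists 2 protein-coding transcripts of Daam2, the longer of 3646 bases, and 2 retained-intron transcripts, the longer of 8956 bases. The length listed for the gene, 9769 bases, is above the length of each of them. A gene total cannot tell spliced mRNA from transcripts that keep an intron. Per kilobase of listed length Daam2 stood at 2.60 CPM per kb with RBPMS, against 0.639 in control replicates 1 and 2 and 0.302 in control replicate 3. Per kilobase of its longer coding transcript these levels were 6.96, 1.71 and 0.809 CPM per kb.

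RBPMS proteins are known to bind RNA that holds CAC triplets, often in pairs, so CAC was counted on the sense strand of the longest protein-coding transcript of each formin, overlapping matches included. A pair was 2 consecutive CAC that did not overlap each other, with a gap of at most 12 bases. Daam2 held 63 CAC and 16 pairs, or 4.39 pairs per kb, and 20.6% of 11744 tested genes had at least that density (median 2.85). Fhod1 had the highest density among the 9 formins with counts, 6.11 pairs per kb (24 pairs), which 5.71% of tested genes reached. Fmnl3 had the lowest, 2.26 pairs per kb, which 64.8% of tested genes reached. The 30-base windows with the most CAC within 1 exon are shown for both DAAM genes, since Daam2 differed and Daam1 hardly did, and for Fhod1, Diaph2 and Diaph3, the other formins that differed. Capitals mark CAC, and sequences are from GENCODE M21 transcripts, written 5′ to 3′ with T for U.
Daam2: cCACACCACctgtgaaagccgcatcCACAC
Daam1: CACCACcccCACtcctttcaggtggagCAC
Fhod1: cgcctCACcagtaggctcCACcccctcCAC
Diaph2: CACCACCACCACctcctcctcctcCACCAC
Diaph3: CACcgccccctcctcCACCACcccCACCAC

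The Daam2 window lies in coding exon 6 of 26 (chr17:49490232-49490261, minus strand, GRCm38) and that of Daam1 in coding exon 14 of 26 (chr12:71951927-71951956, plus strand). The Fhod1 window is in coding exon 11 of 22 (chr8:105336520-105336549, minus strand), that of Diaph2 in coding exon 16 of 27 (chrX:129971343-129971372, plus strand) and that of Diaph3 in coding exon 16 of 28 (chr14:86966486-86966515, minus strand). Daam1 held 2.55 pairs per kb, Diaph2 4.15 and Diaph3 3.27. The triplet is common: 97.7% of tested genes held at least 1 pair, and a match is no evidence of binding. Introns were not searched.

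Daam1, the other DAAM gene, differed little and was the more abundant of the pair in every library. Daam1 (ENSMUSG00000034574, chromosome 12, 71831078 to 71992333) had 125, 124 and 132 CPM with RBPMS and 136, 132 and 84.2 CPM in control replicates 1 to 3. The RBPMS libraries lay below control replicates 1 and 2 and above control replicate 3. The sign of its log2 fold change turned with that library, -0.08 ± 0.048 without it and 0.11 ± 0.19 with it. Within a library the ratio of both genes needs no scaling: there were 20.2, 21.7 and 18.2 Daam2 counts per 100 Daam1 counts with RBPMS, and 3.87, 5.46 and 3.50 in controls. The share of Daam2 in the DAAM counts was 15.4% to 17.8% with RBPMS and 3.38% to 5.18% in controls. The exact (Clopper-Pearson) 95% intervals of the RBPMS libraries began at 14.1% and those of the controls ended at 6.18%, and they cover counting error only.

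**Figure D1:**
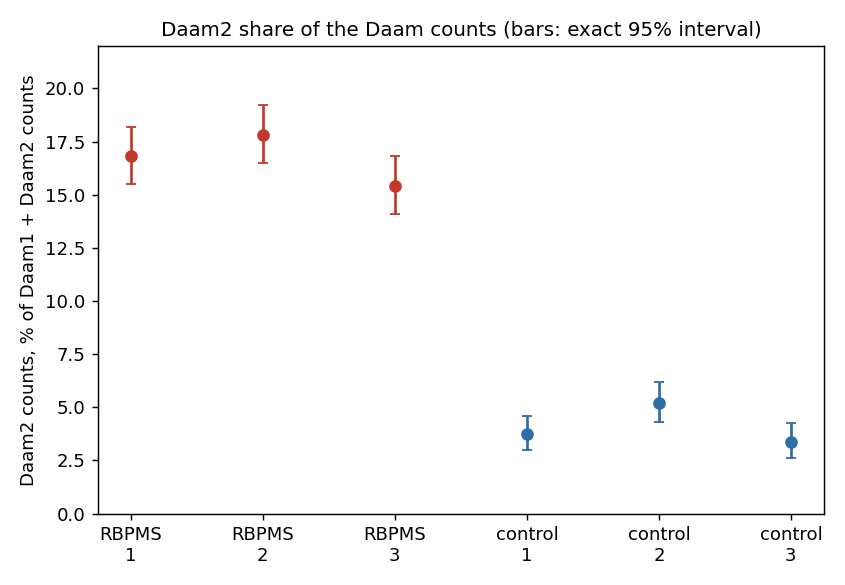
Daam2 counts as a percentage of Daam2 plus Daam1 counts in each library (y axis, percent), RBPMS libraries in red and controls in blue, bars showing exact 95% intervals for counting error. The RBPMS libraries lie between 15.4% and 17.8%, and the controls, control replicate 3 among them, between 3.38% and 5.18%.

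Of the other formins, Diaph2 and Fhod1 were somewhat higher with RBPMS and Diaph3 lower, and the rest differed by little. The groups did not overlap for 6 of the 9 formins with counts without control replicate 3, where this held for 37.4% of tested genes, and for 4 of 9 with it, against 24.7%. The median log2 fold change of the 9 was 0.03 without control replicate 3 and 0.15 with it, against -0.003 and -0.008 over all tested genes. The members were chosen with this contrast known, so nothing is read from these shares.

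**Figure D2:**
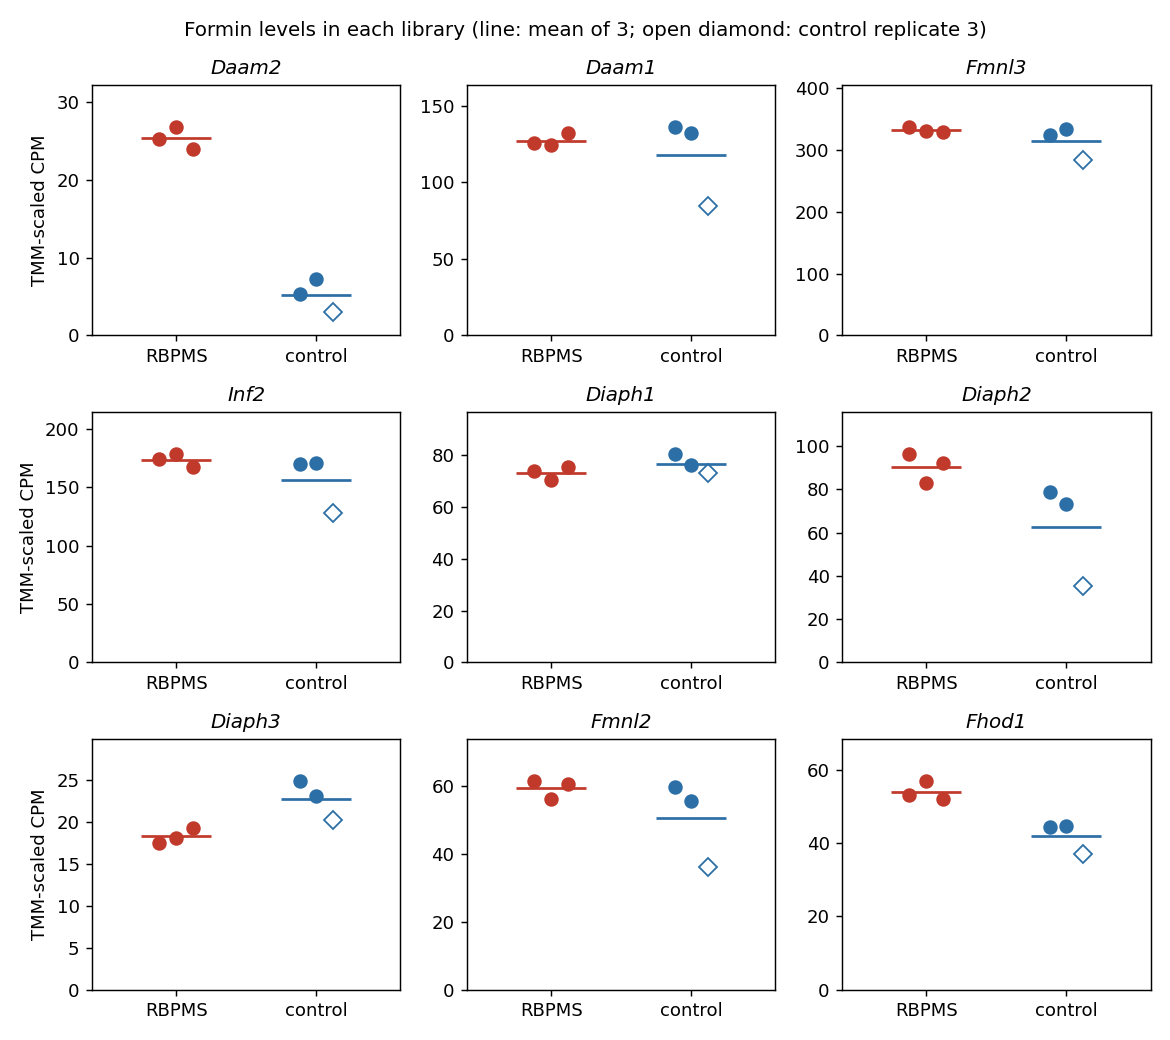
TMM-scaled CPM of the 9 formins with counts (y axis, from 0, a scale for each gene) in 3 RBPMS libraries (red, left) and 3 controls (blue, right), lines giving means of 3 and the open diamond control replicate 3. The Daam2 points lie at 25.3, 26.8 and 24.0 CPM with RBPMS and 5.27, 7.21 and 2.95 CPM in controls, and control replicate 3 is the lowest control in all 9 panels.

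The Diaphanous formins differed from each other in direction. Diaph2, an X-linked member linked to endosome movement, had 96.4, 82.8 and 92.0 CPM with RBPMS and 78.7, 73.2 and 35.3 CPM in control replicates 1 to 3. The groups did not overlap, though RBPMS replicate 2 was close to control replicate 1. The fit gave a log2 fold change of 0.25 ± 0.063 from 5 libraries and 0.54 ± 0.28 from all 6. Diaph3, known for its part in cytokinesis, had 17.4, 18.1 and 19.3 CPM with RBPMS and 24.9, 23.1 and 20.2 CPM in controls. All RBPMS libraries lay below all controls, with a log2 fold change of -0.39 ± 0.089 without control replicate 3 and -0.31 ± 0.12 with it. Diaph1, known for its part in stress fibres, had 73.8, 70.3 and 75.4 CPM with RBPMS and 80.4, 75.9 and 73.1 CPM in controls. Its groups overlapped through control replicate 3, and the fitted log2 fold change was -0.09 ± 0.057 from 5 libraries and -0.06 ± 0.097 from all 6.

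Fhod1, a formin of stress fibres, had 53.3, 57.0 and 52.0 CPM with RBPMS and 44.6, 44.8 and 37.0 CPM in controls. All RBPMS libraries lay above all controls (log2 fold change 0.28 ± 0.068 without control replicate 3, 0.36 ± 0.12 with it). Its locus (chromosome 8, 105329163 to 105347953, minus strand) overlaps Tmem208 on the plus strand, which had 326 to 926 counts in a library and a log2 fold change of -0.04 without control replicate 3. Whether counting used the strand is not stated in these sources, so the Fhod1 counts are uncertain to that extent. None of the other 8 formins overlapped a gene with more than 100 counts in a library. In the 5 fits that left out 1 library more, the log2 fold change was 0.201 to 0.313 for Diaph2, -0.444 to -0.342 for Diaph3, 0.24 to 0.31 for Fhod1 and 1.81 to 2.27 for Daam2.

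The formin-like genes and Inf2 had log2 fold changes nearest to 0 of the 9 formins without control replicate 3, though over all 6 libraries Diaph1 and Daam1 were nearer to 0 than Inf2 and Fmnl2. Fmnl3, which shapes filopodia and endothelial junctions, had 338, 331 and 329 CPM with RBPMS and 324, 335 and 284 CPM in controls. Fmnl2, which acts at the leading edge of moving cells, had 61.3, 56.0 and 60.4 CPM with RBPMS and 59.7, 55.4 and 36.0 CPM in controls. Inf2, a formin that also severs filaments and acts in mitochondrial division, had 174, 179 and 167 CPM with RBPMS and 170, 171 and 128 CPM in controls. The groups overlapped for these 3 genes with and without control replicate 3. The log2 fold changes without control replicate 3 were 0.01 ± 0.045 for Fmnl3, 0.04 ± 0.066 for Fmnl2 and 0.03 ± 0.047 for Inf2, and those over all 6 libraries were 0.08 ± 0.11, 0.24 ± 0.19 and 0.15 ± 0.14.

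**Figure D3:**
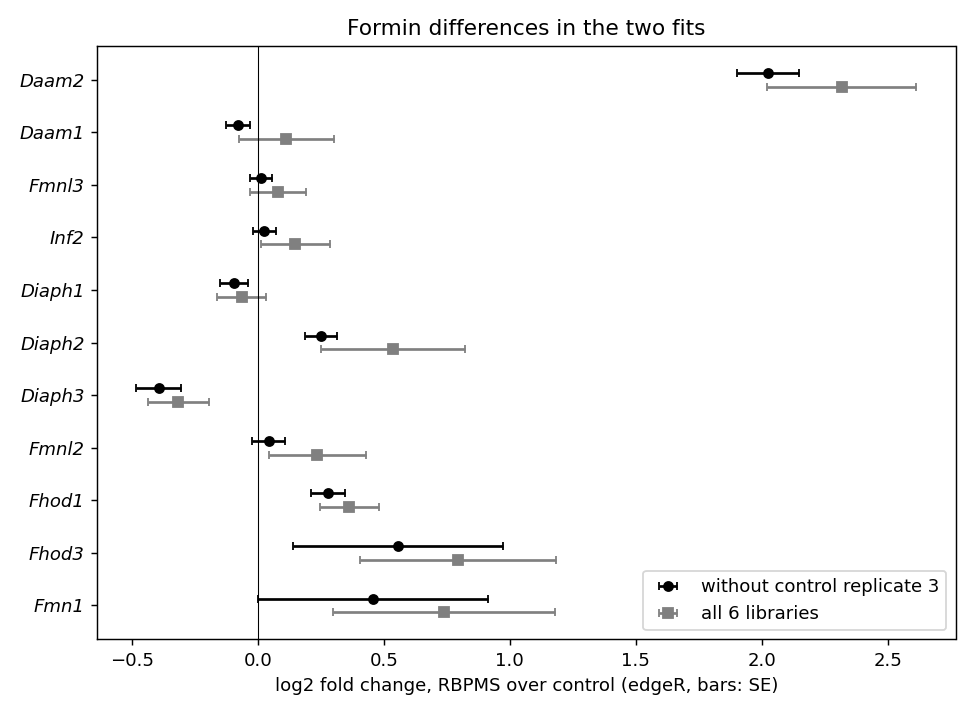
Log2 fold change of RBPMS over control (x axis, log2 units, bars showing SE) for 11 formins in the edgeR fit without control replicate 3 (black circles) and over all 6 libraries (grey squares). Daam2, with 67 to 578 counts in a library, stands at 2.02 and 2.32. The 8 formins with more than 100 counts in every library lie between -0.39 and 0.54.

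Some formins were at or near the limit of detection. Fmn2, which builds actin for spindle positioning in the mouse oocyte, had 0 counts in all 6 libraries, where 3 counts would be 0.130 to 0.190 CPM. Outside the 10 genes, Fhod3, a formin of heart muscle sarcomeres, had 0.977, 1.25 and 0.766 CPM with RBPMS and 0.502, 0.863 and 0.396 CPM in controls. Fmn1 had 0.537, 0.975 and 0.931 CPM with RBPMS and 0.753, 0.432 and 0.308 CPM in controls. Both overlapped between groups and neither passed the test without control replicate 3 (edgeR log2 fold change 0.56 ± 0.42 with an adjusted p of 0.50 for Fhod3, and 0.46 ± 0.46 with 0.64 for Fmn1). Fhod3 shares its locus with Tpgs2 on the other strand (157 to 435 counts in a library). Fmnl1, a formin of blood cells, had 1 to 3 counts in RBPMS libraries and 0 to 4 in controls, and Grid2ip, a formin of cerebellar synapses, at most 1 count in any library.

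Per kilobase of listed length the family was led by Fmnl3, Inf2 and Daam1 in 5 libraries, and by Fmnl3, Inf2 and Diaph1 in control replicate 3. With RBPMS the mean levels were 66.2 CPM per kb for Fmnl3, 35.6 for Inf2, 15.7 for Daam1, 11.6 for Fhod1, 11.5 for Diaph1, 10.5 for Fmnl2, 7.82 for Diaph2, 3.28 for Diaph3 and 2.60 for Daam2. In control replicates 1 and 2 they were 65.6 for Fmnl3, 34.9 for Inf2, 16.6 for Daam1, 12.3 for Diaph1, 10.2 for Fmnl2, 9.57 for Fhod1, 6.57 for Diaph2, 4.31 for Diaph3 and 0.639 for Daam2. Fhod1 and Diaph1 overlapped over the RBPMS libraries, so their order there is not resolved. Within each control library Daam1 was above Fmnl2, and Fmnl2 was above Diaph2. In control replicates 1 and 2 Daam1 was above Diaph1, Fmnl2 above Fhod1 and Diaph2 above Diaph3. In control replicate 3 each of these pairs had the opposite order, so their order is not resolved over the 3 controls. Among these 9 formins Daam2 was last in every library by listed length. By the longest coding transcript it stood above Diaph3 with RBPMS (6.96 against 3.99 CPM per kb) and below it in control replicates 1 and 2 (1.71 against 5.24). Daam2 supplied 1.55%, 1.67% and 1.5% of the summed per-kb formin level with RBPMS, and 0.335%, 0.459% and 0.239% in controls.

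Without Daam2, the summed formin level per kb was 161 to 164 CPM per kb with RBPMS, against 161 and 160 in control replicates 1 and 2 and 126 in control replicate 3. That library was below both other controls for all 9 formins with counts, which held for 45.0% of tested genes, and below all 5 other libraries for 7 of 9, against 39.7%. It held less of long genes: its median log2 difference from the other controls was 0.60 in the 20% of tested genes with the shortest listed length and -0.53 in the longest 20%. The 9 formins are 4666 to 11553 bases long and differed by -0.10 (Diaph1) to -1.10 (Diaph2), with Daam2 at -1.04. Over all 6 libraries the median log2 fold change of the longest 20% was 0.16, and 0.02 without control replicate 3. In a refit of all 6 libraries with a gene length offset, Daam2 had a log2 fold change of 2.19. The part of this length trend in the 6-library values was not tested.

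**Figure D4:**
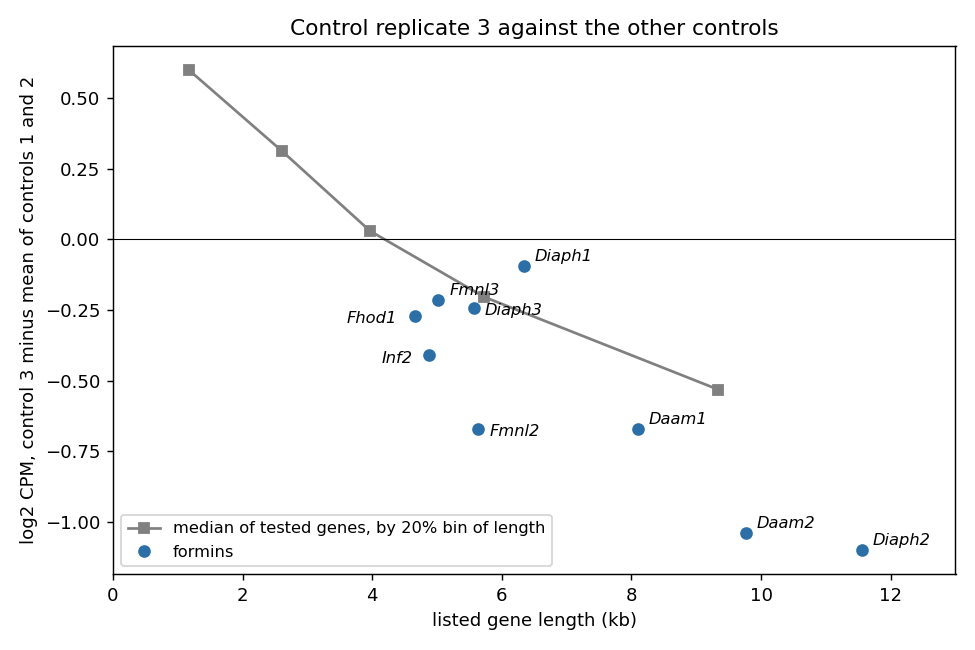
Log2 CPM of control replicate 3 minus the mean of control replicates 1 and 2 (y axis, log2 units) against listed gene length (x axis, kb) for 9 formins (blue) and for the median of tested genes in 5 bins of length (grey squares). All 9 formins lie below 0, from -0.10 for Diaph1 to -1.10 for Diaph2, and the grey line falls with length to -0.53.

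The genes on either side of Daam2 did not share its difference. Mocs1, an enzyme of molybdenum cofactor synthesis, ends 586 bases from the 3′ end of Daam2 on the opposite strand. It fell to 138, 137 and 125 CPM with RBPMS, against 149 and 152 CPM in control replicates 1 and 2 (log2 fold change -0.18 ± 0.051 with an edgeR adjusted p of 0.039 in the 5-library fit). Control replicate 3 had 97.8 CPM, which took the 6-library log2 fold change to 0.002, and its call was lost in 4 of 5 fits that left out 1 library more (all but the one without RBPMS replicate 2). On the other side Kif6 had at most 0.0628 CPM, and Rftn1, a lipid raft protein gene, had 44.7, 47.8 and 44.0 CPM with RBPMS and 51.1, 46.9 and 50.2 CPM in controls (adjusted p = 0.45 without control replicate 3). Unc5cl, Lrfn2 and Dazl, the other protein-coding neighbours, had 0 counts in all libraries.

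By profile over the 6 libraries the genes nearest to Daam2 were Atp8b3, Ifi207, Olfm4 and Serpina3h, among 10741 tested genes with a descriptive symbol and a mean log2 CPM of at least 1. The measure was the root-mean-square difference of log2 CPM after centring each gene on its own mean, 0.25 for Atp8b3, 0.43 for Ifi207, 0.54 for Olfm4 and 0.58 for Serpina3h, in log2 units. With 2 groups this likeness mostly follows the group difference. Atp8b3, a phospholipid flippase gene, had 4.69, 6.69 and 5.09 CPM with RBPMS and 1.51, 1.54 and 0.836 CPM in controls. Serpina3h, a member of a serine protease inhibitor family that the table lists as a transcribed unprocessed pseudogene, had 20.4, 19.6 and 16.2 CPM with RBPMS and 6.78, 9.92 and 6.21 CPM in controls. Ifi207 and Serpina3h belong to families of near-identical copies, so reads may be split between copies.

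The wider actin and Wnt machinery was examined through 5 lists with 132 different genes, of which 112 were tested. Without control replicate 3, 4 of 112 rose (3.81% of all tested genes did) and 13 fell (3.43%). The median of their log2 fold changes was -0.03, and that of all tested genes -0.003. Over all 6 libraries edgeR called 0 of 112. The test was unstable to the loss of a library: of the 17 calls, 5 were kept when control replicate 1 was also left out, 8 for control replicate 2, 11 for RBPMS replicate 1, 12 for RBPMS replicate 2 and 13 for RBPMS replicate 3. The folds and adjusted p-values that follow are from edgeR without control replicate 3. Counts of each list stand beside the same shares of all tested genes, 3.81% rising and 3.43% falling.

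Genes of actin monomer supply and filament turnover went both ways, with 2 of 27 rising and 3 falling. Profilin 1 (Pfn1), which delivers actin to FH1 domains, fell to 323 CPM with RBPMS, against 366 CPM in control replicates 1 and 2 (-0.18 ± 0.051, adjusted p = 0.037), and was called in 1 of 5 fits that left out 1 library more. The monomer-binding thymosin Tmsb10 (-0.33 ± 0.062) and the severing factor cofilin 1 (Cfl1, -0.18 ± 0.047) fell, and the cofilin phosphatase Ssh1 rose (0.18 ± 0.050). Tmsb10 was called in 4 of 5 such fits, and Cfl1 and Ssh1 in 2 of 5 each. The 3 falling genes, Pfn1, Tmsb10 and Cfl1, were highest in control replicate 3, and their groups did not overlap over all 6 libraries. A further list held the Arp2/3 complex, which builds branched networks, its activators and other nucleators. Of its 21 tested genes 1 rose and 1 fell. These were the activator Wasl (0.20 ± 0.050, adjusted p = 0.019) and the subunit Actr3 (-0.18 ± 0.048, adjusted p = 0.026). Each was called in 2 of 5 fits that left out 1 library more.

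Among 20 tested partners of formins 1 rose and 2 fell. Srgap1, a partner in Slit and Robo signalling, rose to 50.4 CPM with RBPMS, against 37.9 CPM in control replicates 1 and 2 and 16.7 CPM in control replicate 3 (0.41 ± 0.074, adjusted p = 0.0013), and was called in 5 of 5 fits that left out 1 library more. The cytokinesis genes Anln (-0.38 ± 0.070, called in 4 of 5 such fits) and Racgap1 (-0.28 ± 0.074, called in 2 of 5) fell. Anln had 49.9 CPM in control replicate 3, within the 47.9 to 55.8 CPM of the RBPMS libraries. Its 6-library log2 fold change was -0.25 ± 0.15. Of 30 tested genes of planar cell polarity and Wnt reception, the pathway of DAAM proteins, 0 rose and 2 fell. These were Lrp5, a Wnt co-receptor (-0.21 ± 0.045, adjusted p = 0.0063, with a 6-library value of 0.10), and the receptor Fzd9 (-0.31 ± 0.076, adjusted p = 0.014). Lrp5 was called in 4 of 5 fits that left out 1 library more, and Fzd9 in 3 of 5. The Dishevelled genes, whose proteins bind DAAM, had log2 fold changes of -0.12 ± 0.061 (Dvl1), 0.07 ± 0.11 (Dvl2) and 0.09 ± 0.070 (Dvl3), and did not pass. They were named after their values were seen.

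SRF and its MRTF coactivators switch on cytoskeletal genes when formins draw down free actin. Of 16 tested genes of that list 0 rose and 5 fell, where 3.81% of all tested genes rose and 3.43% fell. The median of the 16 was -0.18 on the log2 scale, where that of all tested genes was -0.003. It was -0.06 with control replicate 3 included. Nonmuscle myosin heavy chain Myh9 fell to 1637 CPM with RBPMS, against 1991 CPM in control replicates 1 and 2 (-0.28 ± 0.047, adjusted p = 6.58e-04). Tagln2 (-0.37 ± 0.065), the coactivator gene Mkl2 (-0.21 ± 0.046) and calponin 2 (Cnn2, -0.23 ± 0.050) fell too. Srf itself (-0.08 ± 0.062) and the other coactivator gene Mkl1 (0.05 ± 0.075) were not called, and were named after their values were seen. Myh9 and Tagln2 were called in 5 of 5 fits that left out 1 library more, Mkl2 in 4 of 5 and Cnn2 in 3 of 5. The remaining falling gene, the filamin gene Flna, had -0.16 ± 0.047 (adjusted p = 0.043). Its 6-library value was 0.15, and it was named after its values were seen. Control replicate 3 held 879 CPM of Myh9 and 191 CPM of Mkl2, less than any RBPMS library, and over all 6 libraries their log2 fold changes were 0.01 and 0.10. Tagln2 and Cnn2 were highest in that library, and their groups did not overlap over all 6, as for 24.7% of tested genes. Both are short genes (2082 and 2460 bases), of which that library held more, and the part of length was not tested.

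**Figure D5:**
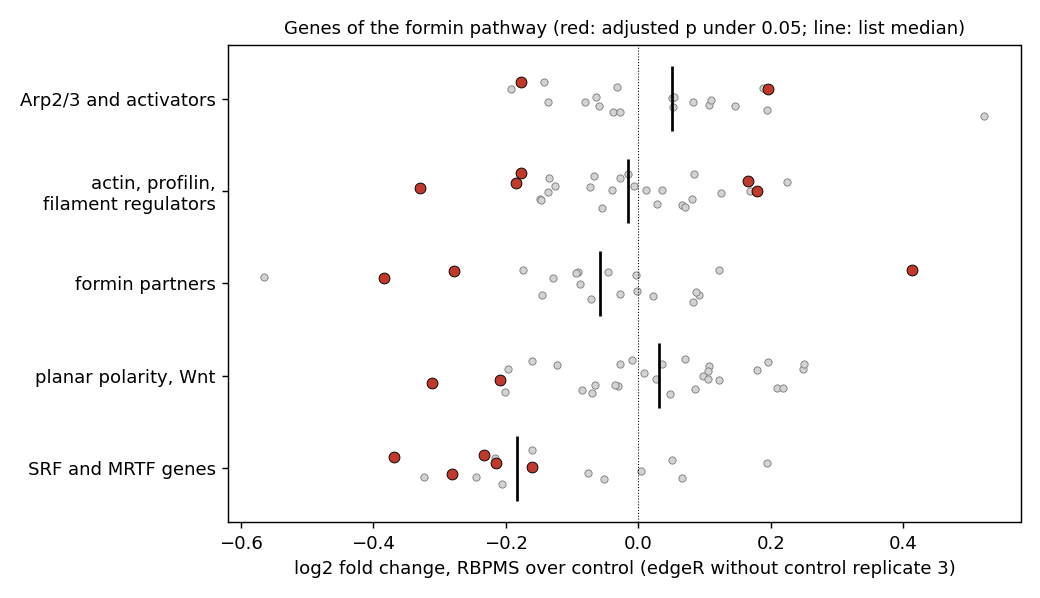
Log2 fold change of RBPMS over control without control replicate 3 (x axis, log2 units) for the tested genes of 5 lists (rows), red points marking edgeR adjusted p under 0.05 and lines the list medians. Called genes lie on both sides of 0, and the list of SRF and MRTF genes has 5 called genes, all below 0.

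Markers of other cell types were low beside the endothelial markers. Glial markers, of interest since Daam2 is best known from glia, summed to 1.204 to 2.002 CPM with RBPMS and 1.13 to 1.73 CPM in controls, with Mbp, Olig1, Olig2, Sox10 and Aqp4 at 0 counts in all libraries. Mural markers summed to 1.37 to 2.18 CPM with RBPMS and 0.968 to 1.95 CPM in controls (Rgs5 at 0), and fibroblast markers to 5.47 to 6.02 CPM with RBPMS and 5.02 to 7.79 CPM in controls (Dpt at 0). Cardiomyocyte markers summed to 1.81 to 2.42 CPM with RBPMS and 0.879 to 3.79 CPM in controls, and mesothelial markers to 17.03 to 21.18 CPM with RBPMS and 21.3 to 26.1 CPM in controls. Msln made up most of the mesothelial sum, at 17.7 CPM with RBPMS and 22.2 CPM in control replicates 1 and 2. Daam2 had 25.4 and 6.24 CPM there. The summed level of 7 leukocyte markers was 59.6 to 66.0 CPM with RBPMS and 48.5 to 53.8 CPM in controls. Most of that was the lysosomal gene Cd68, at 55.4 CPM with RBPMS and 43.9 CPM in control replicates 1 and 2, while Cd14 stood at 5.29 CPM with RBPMS and 6.31 CPM in those controls, Adgre1 had 0 counts and Ptprc averaged 0.0710 CPM with RBPMS and 0 in control replicates 1 and 2. The part of these markers in the Daam2 difference was not tested.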

How the data were processed

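The deposited table gives whole-number counts per gene, which the authors made with FastQC, Salmon and the mm10 build per the submitters' processing notes. Versions, the step to gene counts and any use of strand are not stated in these sources. The listed length in bases is a deposited column. Groups come from sample titles. Gene members, lists and tests were chosen with earlier results of these data known. Counts were tested as deposited in R 4.3.3 with edgeR 4.0.16 (quasi-likelihood, TMM, filterByExpr, a design of group alone, p-values adjusted by Benjamini-Hochberg across all tested genes with a threshold of 0.05) on all 6 libraries and without control replicate 3. SE is the log2 fold change divided by the square root of F. CPM uses TMM factors of all 6 libraries, and profiles a prior count of 2. Alternatives used DESeq2 1.42.0 and limma 3.58.1. Same-numbered replicates did not deviate together (r of -0.0252 to 0.0505), so numbers were not taken to pair samples. Named genes are the formins, up to 4 called genes a list by smallest p (or the 2 most abundant), the 3 protein-coding neighbours on each side of Daam2, and its 4 nearest profiles. Some other gene lists are not reported here. Gene coordinates are the table's. Replicates of a group differed by more than sampling noise (chi-square per degree of freedom of at least 3.41).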

Additional observations from a re-analysis of the deposited data

How the results depend on the processing

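The log2 fold change of Daam2 was positive under all settings run. Over all 6 libraries it was 2.44 with limma-voom, 2.03 with limma-voom and library quality weights, 2.19 with a gene length offset, 2.02 without control replicate 3 and 2.64 without control replicate 2, the lowest and highest with 1 library left out. Without control replicate 3 it was 1.81 (also without control replicate 1) to 2.27 (also without control replicate 2), and 2.32 with all 6 libraries. The number of called genes over all 6 libraries was 0 in the planned edgeR test, 5 with no filter on low counts, 56 with the DESeq2 Wald test, 3 with the length offset, 1087 with library quality weights, and 0 to 1022 with 1 library left out (1022 without control replicate 3). Without that library it was 1022, and 415 (without control replicate 1) to 1017 with 1 more left out, 627 without control replicate 2 and 616 without RBPMS replicate 1. With the replicate number as a block it was 917, and 0 over all 6 libraries. Pathway genes called over all 6 libraries numbered 0, 14 with quality weights and 0 to 17 with 1 library left out. Without control replicate 3 they numbered 17, and 5 to 13 with 1 more left out, and 0 with all 6 libraries.

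Daam1 had 0.11 over all 6 libraries, -0.082 with quality weights there, and -0.0771 (without control replicate 3) to 0.232 (without control replicate 1) with 1 library left out. In the fit without control replicate 3, 1 more library left out gave -0.0107 to 0.0368 for Fmnl3 and -0.00907 to 0.096 for Fmnl2. With all 6 libraries the log2 fold changes of Lrp5 (0.104), Flna (0.146), Myh9 (0.0149), Mkl2 (0.0988) and Mocs1 (0.00236) turned. What sets control replicate 3 apart was not tested. Runs of the pathway lists, neighbours and nearest profiles under these settings were added after the data were seen. Depth limits Fmn1, Fhod3, Fmnl1, Grid2ip and Fmn2, at 27 or fewer counts in a library.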
